A study of Mus musculus with 12 samples.

Results

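The genes described here encode the enzymes that oxidise and conjugate drugs, steroids, bile pigments and other small lipophilic molecules in mouse proximal colon with and without EPR, a long noncoding RNA of the intestinal epithelium listed in the table as Smim31. They were taken by symbol from the count table: cytochrome P450 genes of the Cyp1 to Cyp4 families, UDP-glucuronosyltransferases (Ugt1 and Ugt2), glutathione S-transferases of the alpha, mu, pi, theta, kappa, omega and zeta classes (Gst), and sulfotransferases (Sult1 to Sult5). This rule, which uses no measured value, gave 178 of the 55376 genes in the table, of which 111 were Cyp, 19 Ugt, 23 Gst and 25 Sult. Names of pseudogenes or opposite-strand transcripts made up 38 of them.

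RNA was prepared from the proximal colon of 12-week-old mice, 6 in each group, and each mouse gave 1 library. EPR fl/fl mice carried loxP sites around the promoter and first exon of EPR on both alleles and served as controls. EPR cKO mice carried the same floxed alleles together with the CDX2P-NLS Cre transgene, in which a human CDX2 promoter directs the recombinase to epithelial cells from the distal ileum through the cecum to the colon. The controls had no Cre, so that an effect of the transgene and one of the deletion cannot be told apart.

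Libraries held between 13093904 and 33211041 counts assigned to genes. EPR itself was at 21.3 to 58.1 CPM (a gene's counts scaled to 1000000 counts per library) in controls and at 0 to 0.424 CPM in EPR cKO (log2 fold change -8.09, adjusted p = 1.62e-06), and all 6 EPR cKO libraries lay below all controls. The tissue was whole colon wall, and 1 EPR cKO library stood apart. Summed CPM of 10 smooth muscle markers was 3165 to 5549 in EPR fl/fl, 9478 in EPR cKO 1 and 1057 to 2774 in EPR cKO 2 to 6. Expressed as a tissue composition score (mean log2 CPM of 10 epithelial markers minus that of the smooth muscle markers), controls were at 1.05 to 1.74, EPR cKO 1 at 0.11 and EPR cKO 2 to 6 at 2.11 to 3.67. An exact two-sided permutation test of the group means gave p = 0.0584, and p = 0.00216 without EPR cKO 1 (n = 6 and 5). The value without EPR cKO 1 is not a separate test of the groups. That library was set apart by this same score and by its smooth muscle markers, so no conclusion is drawn from leaving it out. Because EPR cKO 1 stood apart, each result below is also given without it where it moved. In that fit every EPR cKO score lay above all controls. Genotype and tissue composition cannot be told apart there, so a call without EPR cKO 1 is not a cleaner result. In bulk tissue, fewer cells of a type and less RNA per cell cannot be told apart. The tissue had colonocyte markers at a summed 9254 to 16891 CPM in EPR fl/fl, while 6 liver markers summed to 17.9 to 34.3 CPM, with Fgb at 0 and Alb at no more than 2.22 CPM in every library.

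Enzymes of this kind act in sequence. Cytochromes P450 insert oxygen into their substrates with electrons from the reductase Por, and the conjugating enzymes then attach glucuronic acid (Ugt), glutathione (Gst) or sulfate (Sult), after which transporters export the product. In the gut they form a barrier to swallowed chemicals and act on fatty acids, retinoids, steroids and bile pigments. Their transcription is commonly driven by ligand-activated receptors such as Ahr and Nr1i2, by the antioxidant response factor Nfe2l2 and by the epithelial factor Hnf4a.

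Start regions are shown for some members described below, chosen from the Cyp2c and Cyp2d arrays and for Gstk1, because most members lie in tandem arrays of close relatives and the sequence shows how alike neighbours are. RefSeq windows (GRCm38.p6, the same assembly as mm10) were held for 119 members, 57 of them among the 69 that could be tested. Each stretch ends upstream of the start in both RefSeq and the count table's annotation, runs 5′ to 3′ on the gene's strand and has matches to a searched motif in capitals. The motif CAAAGTCCA, a site type bound by Hnf4a, stood in 3 of the 5 tested Cyp2c genes of chromosome 19, and was not found in Cyp2c55 or in Cyp2c66, which is not shown.
Cyp2c55, chr19:39006889-39007018, plus strand: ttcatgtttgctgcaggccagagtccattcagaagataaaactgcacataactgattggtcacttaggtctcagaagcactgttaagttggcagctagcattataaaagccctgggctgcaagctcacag
Cyp2c65, chr19:39060876-39061005, plus strand: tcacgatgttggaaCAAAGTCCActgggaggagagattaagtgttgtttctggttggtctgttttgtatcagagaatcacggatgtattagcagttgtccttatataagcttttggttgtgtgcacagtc
Cyp2c68, chr19:39741102-39741231, minus strand: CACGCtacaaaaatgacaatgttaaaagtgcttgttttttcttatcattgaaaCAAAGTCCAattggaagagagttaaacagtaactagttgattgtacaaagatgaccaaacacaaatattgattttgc
Cyp2c69, chr19:39886800-39886929, minus strand: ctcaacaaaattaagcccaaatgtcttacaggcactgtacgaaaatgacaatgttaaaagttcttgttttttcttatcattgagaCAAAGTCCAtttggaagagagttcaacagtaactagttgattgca
Counted from the RefSeq start, the first base of the match lay 116 bases upstream in Cyp2c65, 77 in Cyp2c68 and 75 in Cyp2c69. The capitals at the beginning of the Cyp2c68 stretch are GCGTG read on the opposite strand.

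Next come 2 neighbouring Cyp2d genes of chromosome 15, whose 250-base upstream windows were 82.8% identical after alignment, and the kappa-class gene Gstk1 of chromosome 6. None of these 3 held a match to any of the 4 motifs. Cyp2d12 had no window in the RefSeq table.
Cyp2d9, chr15:82452204-82452333, plus strand: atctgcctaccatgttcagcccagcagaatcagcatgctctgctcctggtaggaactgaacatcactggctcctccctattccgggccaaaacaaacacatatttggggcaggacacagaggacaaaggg
Cyp2d10, chr15:82407196-82407325, minus strand: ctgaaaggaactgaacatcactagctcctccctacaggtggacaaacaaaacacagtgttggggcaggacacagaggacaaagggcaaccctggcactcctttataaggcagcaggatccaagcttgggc
Gstk1, chr6:42245805-42245934, plus strand: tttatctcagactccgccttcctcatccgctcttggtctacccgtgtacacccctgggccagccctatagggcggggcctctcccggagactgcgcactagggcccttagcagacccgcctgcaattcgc
Across both strands of the 250 bases upstream, CAAAGTCCA occurred in 10 of 137 member windows (7.30%) and in 0.384% of all 32851 windows. The aryl hydrocarbon receptor core GCGTG occurred in 17.5% of member windows and 28.2% of all, and the antioxidant response core TGACNNNGC in 3.65% and 10.2%. The Hnf1 motif was in no member window and in 0.0609% of all. Some members have several windows and many share ancestry, so these shares only describe the letters present.

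Of the 178 members, 50 had no count in any library, 59 had counts but did not reach 1 CPM in 4 libraries, and 69 passed that filter and were tested. The tested members were 34 Cyp, 10 Ugt, 19 Gst and 6 Sult genes. A gene that is low in one group could pass through the other, so statements on the 69 are not statements on all 178. The untested members together made up 5.24 CPM in EPR fl/fl, and all members together 0.733% of the counts of controls and 0.825% of those of EPR cKO.

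The colon enzyme set was led by a small number of genes. In EPR fl/fl, 12 members stood at 100 CPM or more, 29 at 10 to under 100, 26 at 1 to under 10, and 2 tested members lay under 1 CPM. Cyp2c55, an arachidonic acid hydroxylase, was at 1553 CPM per kilobase of exon and ranked 25 among all genes on that scale. Its 3099 ± 676 CPM (SD, n = 6) made up 68.5% of the counts of the whole Cyp family. Next within the family, per kilobase, came Cyp2c65 at 217, the drug oxidase Cyp3a13 at 78.8, the leukotriene hydroxylase Cyp4f14 at 61.8 and the ethanol oxidase Cyp2e1 at 53.0.

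Each conjugating family had its own leading gene. Ugt2b34 was at 141 CPM per kilobase and held 62.6% of Ugt counts, ahead of Ugt1a7c at 43.8 and the bilirubin enzyme Ugt1a1 at 30.8. Among the Gst genes, the omega-class Gsto1 at 210 CPM per kilobase and the pi-class Gstp1 at 166 led, and Gsto1 held 29.4% of the family's counts. Sult1d1, which sulfates catecholamines, stood at 209 CPM per kilobase with 54.3% of Sult counts, followed by the phenol sulfotransferase Sult1a1 at 161 and Sult1b1, which sulfates thyroid hormones, at 49.4. Between families, close levels such as those of Gstp1 and Sult1a1 differed by less than their spread over the control libraries.

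Several drug oxidases that are well known from the liver had few counts, although others, such as Cyp2e1 and Cyp2d34, did not. Cyp3a11 had 110 counts over all 12 libraries, the Ahr target Cyp1a1 had 44, the Nr1i3 target Cyp2b10 had 27 and Cyp2a5 had 3, and none of them reached 1 CPM in any library. The Cyp1a, Cyp2a, Cyp2b, Cyp4a and Sult2a subfamilies had no tested member. The hydroxysteroid sulfotransferases of the Sult2a array had a count in 2 of 12 entries, pseudogenes included.

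**Figure D1:**
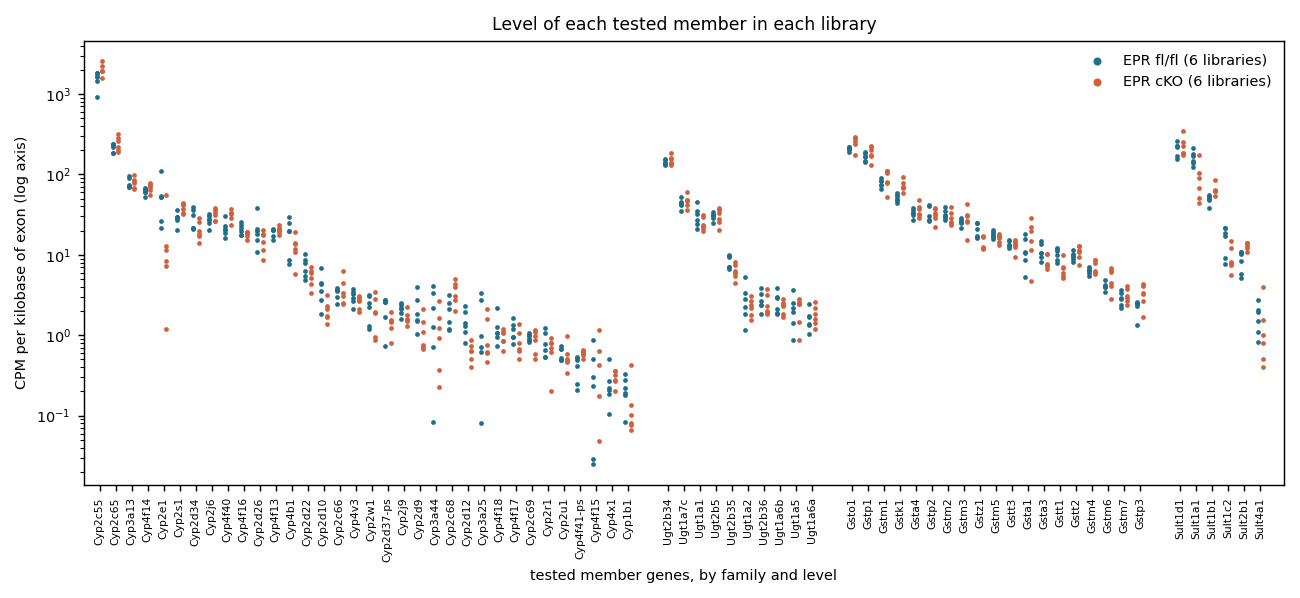
Level of each of the 69 tested members in each library, as CPM per kilobase of exon on a log axis, ordered within each family by the EPR fl/fl mean. Points are single libraries of EPR fl/fl (blue) and EPR cKO (orange), and 1 value of 0 (Cyp4f15 in EPR cKO 3) is not drawn. Cyp2c55 is the highest member, and the clouds of both groups overlap for every member.

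Most of these genes were not called in EPR cKO. With edgeR's quasi-likelihood test adjusted over all 15952 tested genes, Gstk1 rose and Cyp2d12 fell in EPR cKO, 2 of 69 members (2.90%), where 2.46% of all tested genes were called, 0.884% higher and 1.57% lower. DESeq2 called 5 members higher and 5 lower (14.5% of the 69), beside 5.74% of all genes (2.77% higher and 2.97% lower), and limma called 1 higher and 2 lower (4.35%), beside 3.15% (1.1% higher and 2.05% lower). At an unadjusted p under 0.05, 9 members were higher and 11 lower, against 11.1% and 7.12% of all tested genes. The groups overlapped in all 69 members, whereas they did not overlap in 2.47% of all genes. None passed the thresholds of the study (adjusted p under 0.001 and absolute log2 fold change over 1.25), which 0.169% of all genes passed. The median log2 fold change was -0.05 over the members and 0.02 over all genes, with 32 members above 0 and 37 below (52.8% of all genes were above 0).

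Leaving out EPR cKO 1 raised the calls to 8 higher and 6 lower of 68 members (20.6%), beside 21.8% of all genes (7.44% higher and 14.4% lower). Groups then did not overlap in 7 members, beside 11.5% of all genes. The members called were Gstk1, Gsto1, Gstp3, Cyp2s1, Cyp4f40, Cyp2c68, Sult1b1 and Sult2b1 as higher, and Cyp2d12, Cyp2e1, Cyp1b1, Cyp2j9, Gstt1 and Gstz1 as lower. With the tissue composition score as a covariate over all 12 libraries, 1 member was called, Ugt2b35 as lower (2.02% of all genes were called, 0.533% higher and 1.49% lower).

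**Figure D2:**
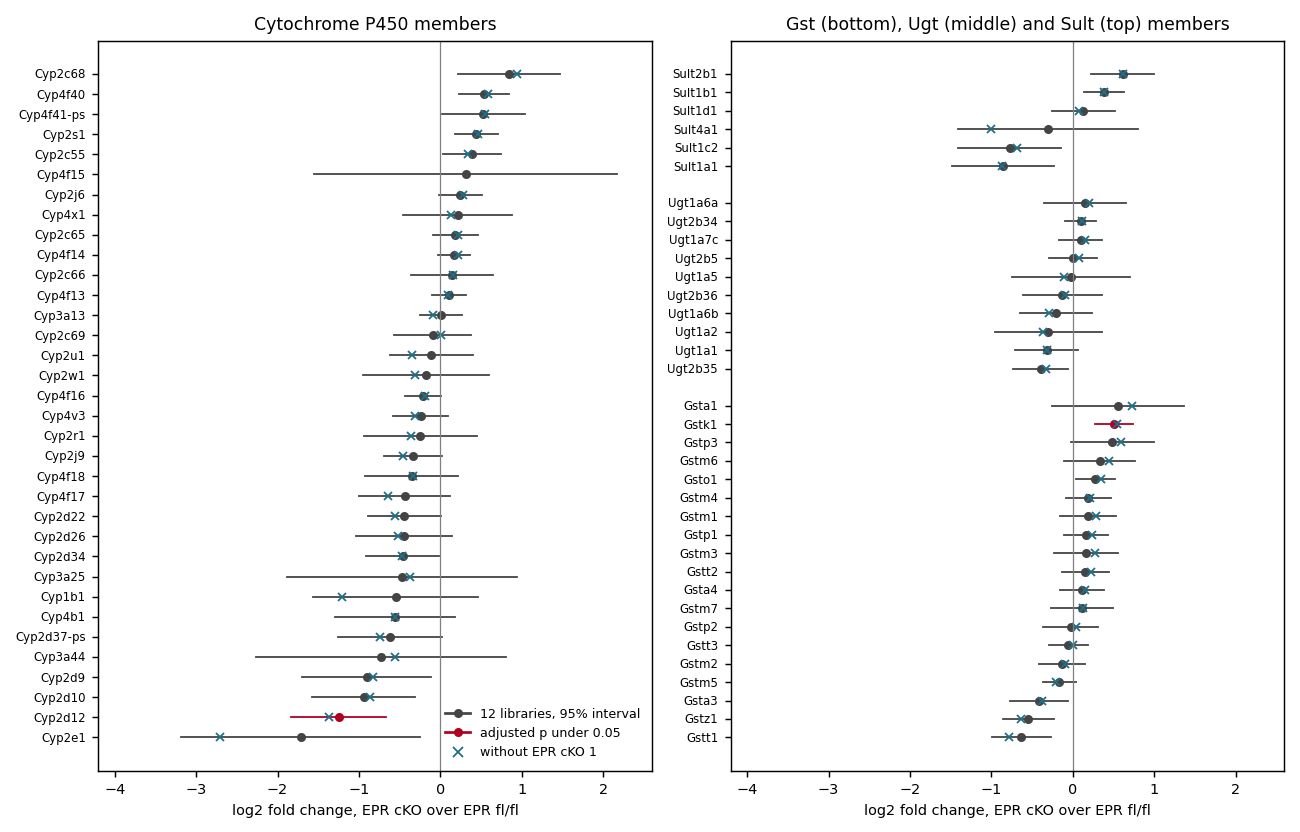
Fitted log2 fold change of EPR cKO over EPR fl/fl for the 69 tested members, with 95% confidence intervals (points and lines, 12 libraries) and the value without EPR cKO 1 (crosses). Gstk1 at 0.51 and Cyp2d12 at -1.25, in red, were called. All 7 Cyp2d members lie left of 0.

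The cytochromes P450 were the family with the largest summed level and the widest span of differences. Their summed CPM was 4521 ± 677 in controls and 5508 ± 721 in EPR cKO (SD, n = 6 each, ratio 1.22), and most of that sum was Cyp2c55. Of the 34 tested Cyp genes, 1 fell, none rose, 13 had a log2 fold change above 0 and 21 below it, with a median of -0.23. At an unadjusted p under 0.05, edgeR had 5 higher and 5 lower, and DESeq2's adjusted test called 2 higher and 2 lower (limma 0 and 1, with the shares of all genes given above).

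Cyp2c55 had 1851, 3286 and 3685 CPM as its lowest, median and highest EPR fl/fl values and 3200, 3860 and 5150 in EPR cKO. The top of the control range overlapped the lowest EPR cKO library, and 5 of 6 EPR cKO libraries lay above all controls. The fitted log2 fold change was 0.39 (SE 0.17, 95% interval 0.03 to 0.75, adjusted p = 0.239). Of the other tested Cyp2c genes, which lie in the same array on chromosome 19, Cyp2c65 was at 0.18 (adjusted p = 0.459), and Cyp2c68 ranged from 1.99 to 5.46 CPM in EPR fl/fl and from 3.41 to 8.60 in EPR cKO. Cyp2c69 was at -0.10 (95% interval -0.57 to 0.38). For Cyp2c68 the log2 fold change was 0.84 (adjusted p = 0.154, SE 0.29), and it was called without EPR cKO 1 (0.94, adjusted p = 0.0250). With the composition covariate it was at 0.45, without a call. This gene shared 43.3% of its 50-base stretches with other genes, chiefly Cyp2c40, and counts of the pair may be mixed. The Cyp2c directions depended on the fit: 4 of 5 were above 0 with all libraries, 5 without EPR cKO 1, and 2 with the composition covariate.

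The Cyp2d genes, mouse relatives of a drug oxidase family well known in human liver, all lay on the lower side in EPR cKO. All 7 tested ones, 6 genes and the transcribed pseudogene Cyp2d37-ps within chr15:82370527-82794294, had negative log2 fold changes, from -1.25 to -0.44 with a median of -0.62. The median is the value of Cyp2d37-ps. The sign held for all 7 without EPR cKO 1 (median -0.74) and with the composition covariate (median -0.48), fits in which other subfamilies were also on 1 side: Cyp2c, Cyp3a and Gstp without EPR cKO 1, and Gsta, Gstm, Gstt and Ugt2b with the covariate. Cyp2d12 (chr15:82555089-82559434, plus strand) was the only one called by edgeR with all libraries. Its CPM was 1.34, 2.26 and 3.87 at the lowest, median and highest EPR fl/fl library and 0.670, 1.06 and 1.43 in EPR cKO. Apart from EPR cKO 1 at 1.43, every EPR cKO library lay below all controls. The log2 fold change was -1.25 (SE 0.27, 95% interval -1.84 to -0.66, adjusted p = 0.0290), -1.37 without EPR cKO 1 (adjusted p = 0.00603) and -1.12 with the covariate (adjusted p = 0.111).

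Cyp2d12 is a low gene, with a mean of 2.47 CPM in controls and 1.05 in EPR cKO. Leaving out 1 library at a time kept its sign in 12 of 12 fits and the call in 5. Of its 50-base stretches, 7.61% occur in other transcripts, mostly of Cyp2d9. Cyp2d10 ranged from 3.07 to 11.4 CPM in EPR fl/fl and from 2.26 to 5.22 in EPR cKO (log2 fold change -0.94, SE 0.29, adjusted p = 0.117). Cyp2d9 ranged from 1.76 to 6.88 and from 1.16 to 3.60 CPM (-0.91, SE 0.37, adjusted p = 0.215). In both genes the groups overlapped, EPR fl/fl 3 was the highest control, and 35.8% and 21.8% of the 50-base stretches were shared with other genes. Counts of Cyp2d neighbours may thus be mixed. Cyp2d34 was at 47.0 ± 13.5 and 34.1 ± 9.13 CPM (log2 fold change -0.46, adjusted p = 0.257).

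Among the Cyp4f genes, fatty acid and leukotriene hydroxylases of chromosomes 17 and 8, 5 of 8 were above 0 and none was called. Cyp4f40 had 37.5, 47.1 and 70.0 CPM as lowest, median and highest values in EPR fl/fl and 53.3, 74.1 and 84.9 in EPR cKO. The overlap came from the highest control, EPR fl/fl 2, and the log2 fold change was 0.54 (adjusted p = 0.0727, SE 0.14). Leaving out 1 library at a time, it was called in 2 of 12 fits. These were without EPR fl/fl 2 (0.66, adjusted p = 0.0125) and without EPR cKO 1 (0.59, adjusted p = 0.0100). EPR fl/fl 2 was the gene's own highest control, so no conclusion is drawn from leaving it out. Over 8 other analyses of all libraries the log2 fold change was 0.28 to 0.55, with a call in 1. The pseudogene Cyp4f41-ps, at 0.830 and 1.22 CPM, had a log2 fold change of 0.53 (adjusted p = 0.261). Cyp4f14 had a log2 fold change of 0.17 (95% interval -0.03 to 0.37).

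Cyp2s1, an epithelial enzyme that acts on retinoids and prostaglandin intermediates, was at 64.3 to 113 CPM in controls and at 103 to 141 in EPR cKO. Its log2 fold change was 0.44 (adjusted p = 0.0822, SE 0.12), and it was called without EPR cKO 1 (0.46, adjusted p = 0.0200). With the composition covariate it was at 0.42, without a call. Cyp3a13 was the Cyp gene closest to equal in both groups, at 233 ± 33.7 and 234 ± 37.1 CPM, with a 95% interval of its log2 fold change from -0.25 to 0.26.

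Cyp2e1 had the largest fitted difference and one of the widest errors. It ranged from 39.3 to 205 CPM in EPR fl/fl, with a median of 96.8. In EPR cKO it was at 102 CPM in replicate 1 and at 2.21 to 23.9 CPM in the other 5, all below every control. The log2 fold change was -1.72 (adjusted p = 0.207, SE 0.68) with 12 libraries and -2.70 (adjusted p = 0.00576, SE 0.54) without EPR cKO 1. With the composition covariate it was -1.21, without a call. The gene is also strong in fat cells, and the summed CPM of 6 adipocyte markers was likewise below all controls in EPR cKO 2 to 6. These markers summed to 378 to 1273 CPM in EPR fl/fl, 877 in EPR cKO 1 and 26.4 to 297 in EPR cKO 2 to 6. The lowest sum and the lowest Cyp2e1 were both in EPR cKO 5. All 6 markers had negative log2 fold changes, and no marker was at 0. With 12 libraries 0 were called, and without EPR cKO 1 6 were, where 14.4% of all genes were called lower. Summed smooth muscle, fibroblast and endothelial markers were also lowest in EPR cKO 5 (1057, 482 and 31.3 CPM). They were highest in EPR cKO 1 (9478, 3131 and 109 CPM), whereas Cyp2e1 and the adipocyte sum were highest in EPR fl/fl 1 (205 and 1273 CPM). The smooth muscle sum was below all controls in EPR cKO 2 to 6. In EPR cKO 2 the fibroblast and endothelial sums (1471 and 72.7 CPM) lay within the control ranges. The part of fat or of other tissue of the colon wall in the Cyp2e1 values was not tested.

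**Figure D3:**
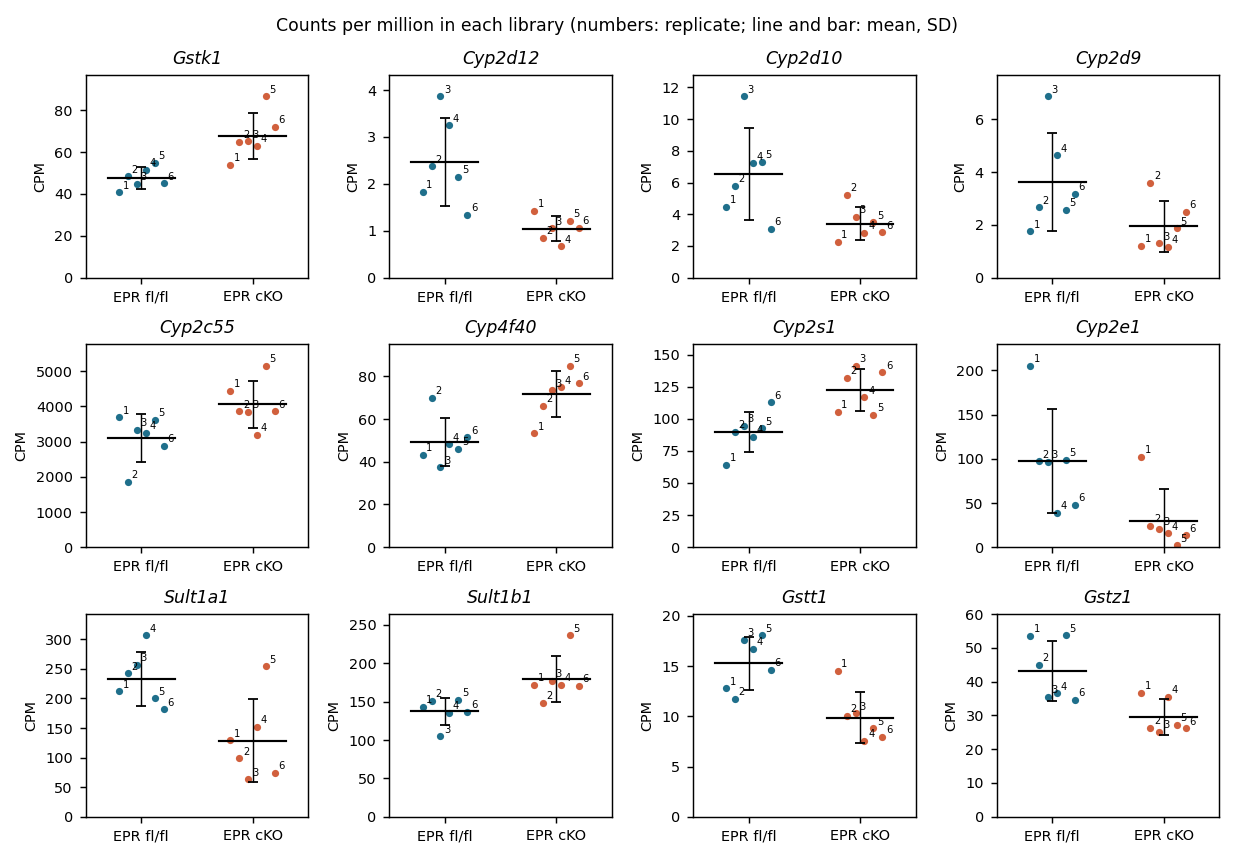
CPM of 12 members in each library, with the replicate number beside each point, the group mean as a line and the SD as a bar. In Gstk1, Gstt1, Cyp2d12 and Cyp2e1, EPR cKO 1 is the library that reaches into the control range, and Cyp2e1 is at 102 CPM there and at 2.21 to 23.9 CPM in the other EPR cKO libraries.

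The glutathione transferases summed to 843 ± 43.3 CPM in controls and 935 ± 155 in EPR cKO (SD, n = 6 each, ratio 1.11), with EPR cKO 1 the lowest of all libraries at 670 CPM. Of 19 tested genes, 1 rose, none fell, and 12 were above 0, with a median log2 fold change of 0.15. At an unadjusted p under 0.05 there were 2 higher and 3 lower (11.1% and 7.12% of all genes). DESeq2 called 1 higher and 2 lower (2.77% and 2.97% of all genes), and limma 1 higher and 1 lower (1.1% and 2.05%). With the composition covariate 3 of 19 were above 0 and the median was -0.18. The mu-class genes in the chromosome 3 array went from 5 of 7 above 0 to none of 7 with that covariate. The direction of the family thus rested on whether composition was in the fit.

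Gstk1, the kappa-class enzyme of mitochondria and peroxisomes (chr6:42245935-42250441, plus strand), was the member that rose. Its CPM was 40.8, 46.8 and 55.0 at the lowest, median and highest EPR fl/fl library and 54.0, 65.0 and 86.6 in EPR cKO. EPR cKO 1 fell just inside the control range and the other 5 libraries were above it. The log2 fold change was 0.51, a fitted ratio of 1.42 (SE of the log2 value 0.11, 95% interval 0.27 to 0.74, adjusted p = 0.0259). It was 0.54 without EPR cKO 1 (adjusted p = 0.00375) and 0.33 with the composition covariate (adjusted p = 0.123). No 50-base stretch of Gstk1 occurred in another transcript. Leaving out 1 library at a time kept its sign in 12 of 12 fits and the call in 5, and the adjusted p ranged from 0.00375 to 0.0774.

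Gstt1 and Gstz1 were lower in most EPR cKO libraries but did not pass the test with all 12, and the other tested theta-class genes, Gstt2 and Gstt3, had fitted ratios of 1.11 and 0.965. Gstt1, a theta-class enzyme that acts on halogenated methanes, was at 11.8 to 18.1 CPM in EPR fl/fl, 14.5 in EPR cKO 1 and 7.55 to 10.3 in the other EPR cKO libraries. Its log2 fold change was -0.63 (adjusted p = 0.0692, SE 0.17), and without EPR cKO 1 it was -0.79 (adjusted p = 0.00302). With the composition covariate it was -0.34, without a call. Gstz1, the isomerase of tyrosine breakdown, was at 34.6 to 53.7 and 25.2 to 36.8 CPM (log2 fold change -0.55, adjusted p = 0.0708, SE 0.15). Exons of Pomt2 on the opposite strand cover 22.3% of its exonic bases, and the strand setting of the counting was not given in the sources used here. Without EPR cKO 1 the log2 fold change of Gstz1 was -0.64 (adjusted p = 0.0105). With the composition covariate it was -0.45, without a call.

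The abundant Gst genes did not pass the test with all libraries. Gsto1, a thioltransferase that also reduces dehydroascorbate, was at 224 to 260 CPM in EPR fl/fl, 204 in EPR cKO 1 and 281 to 342 in the others (log2 fold change 0.28, adjusted p = 0.217). It was called without EPR cKO 1 (0.35, adjusted p = 0.00582) and was at 0.02 with the composition covariate (adjusted p = 0.937). Gstp1 at 0.17 and Gstm1 at 0.19 had 95% intervals that spanned 0, and 33.7% of the 50-base stretches of Gstp1 were shared, mainly with Gstp2. Gsta1 had a log2 fold change of 0.56 with a wide interval (-0.25 to 1.37) and shared 90.5% of its stretches, chiefly with Gm3776.

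The glucuronosyltransferases spanned the narrowest range of differences, and summed to 973 ± 60.8 CPM in controls and 1007 ± 130 in EPR cKO (SD, n = 6 each, ratio 1.03). Of the 10 tested genes edgeR, DESeq2 and limma called none, and log2 fold changes ran from -0.39 to 0.15. At an unadjusted p under 0.05, 1 was lower (7.12% of all genes). Ugt2b34 was at 558 to 679 CPM in controls and 570 to 786 in EPR cKO, with the groups overlapping and a log2 fold change of 0.10 (SE 0.09, 95% interval -0.09 to 0.29). Ugt2b35 was at 22.5 to 33.9 and 15.1 to 27.5 CPM, and 4 of 6 EPR cKO libraries were below all controls. Its log2 fold change was -0.39 (adjusted p = 0.204, SE 0.15) and passed the threshold only with the composition covariate (-0.68, adjusted p = 0.0315). The 6 tested Ugt1a genes on chromosome 1 are alternative first exons joined to shared later exons, so that 54.6% to 90.7% of their exonic bases lie in another gene on the same strand. Their separate values, such as -0.32 for Ugt1a1 (adjusted p = 0.363) and 0.10 for Ugt1a7c (adjusted p = 0.680), rest on how shared reads were assigned, which was not given in the sources used here.

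The sulfotransferases summed to 932 ± 129 CPM in controls and 914 ± 259 in EPR cKO (SD, n = 6 each, ratio 0.981), and the 6 tested genes were divided, 3 above 0 and 3 below. None was called by edgeR, and 2 were higher and 2 lower at an unadjusted p under 0.05 (11.1% and 7.12% of all genes). DESeq2 called 2 higher and 1 lower (2.77% and 2.97% of all genes), and limma called none. Sult1a1 was at 181, 227 and 307 CPM as lowest, median and highest values in EPR fl/fl and at 63.4, 114 and 254 in EPR cKO. In 5 of 6 EPR cKO libraries it was below all controls, and EPR cKO 5 at 254 CPM was within them. The log2 fold change was -0.86 (adjusted p = 0.148, SE 0.29). Leaving out 1 library at a time, Sult1a1 was called in 1 of 12 fits, without EPR cKO 5 (-1.17, adjusted p = 0.0221). That library was the one within the control range, so no conclusion is drawn from leaving it out. Sult1c2 had a log2 fold change of -0.77 (adjusted p = 0.189, SE 0.29), from 14.1 to 39.6 CPM in controls and 10.2 to 27.3 in EPR cKO.

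Sult1b1 and Sult2b1 stood on the other side. Sult1b1 was at 105 to 153 CPM in controls and 149 to 236 in EPR cKO, and 5 of 6 EPR cKO libraries were above all controls (log2 fold change 0.39, SE 0.11, adjusted p = 0.102). Sult2b1, which sulfates cholesterol, was at 12.2 to 25.6 and 25.6 to 33.6 CPM, with the top control and the lowest EPR cKO library almost level. Its log2 fold change was 0.61 (adjusted p = 0.0975, SE 0.18), and exons of Lmtk3 on the opposite strand cover 11.6% of its exonic bases. Both were called without EPR cKO 1 (adjusted p = 0.0438 and 0.0364). With the composition covariate their log2 fold changes were 0.29 and 0.50, without a call. Sult1d1 was at 506 ± 95.3 and 554 ± 160 CPM, with a 95% interval of the log2 fold change from -0.26 to 0.52.

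Some members varied together over the 12 libraries. By Pearson r of log2 CPM, the members most like Gstk1 were Gstp3 (0.83), Cyp4f40 (0.82) and Sult1b1 (0.81), and those most like Cyp2d12 were Gstt1 (0.81), Cyp2d22 (0.78) and Cyp2d10 (0.77). These values describe 12 libraries that share group and tissue composition. Gstk1, Gstp3, Cyp4f40 and Sult1b1 were each at their highest in EPR cKO 5, the library with the highest composition score (3.67).

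**Figure D4:**
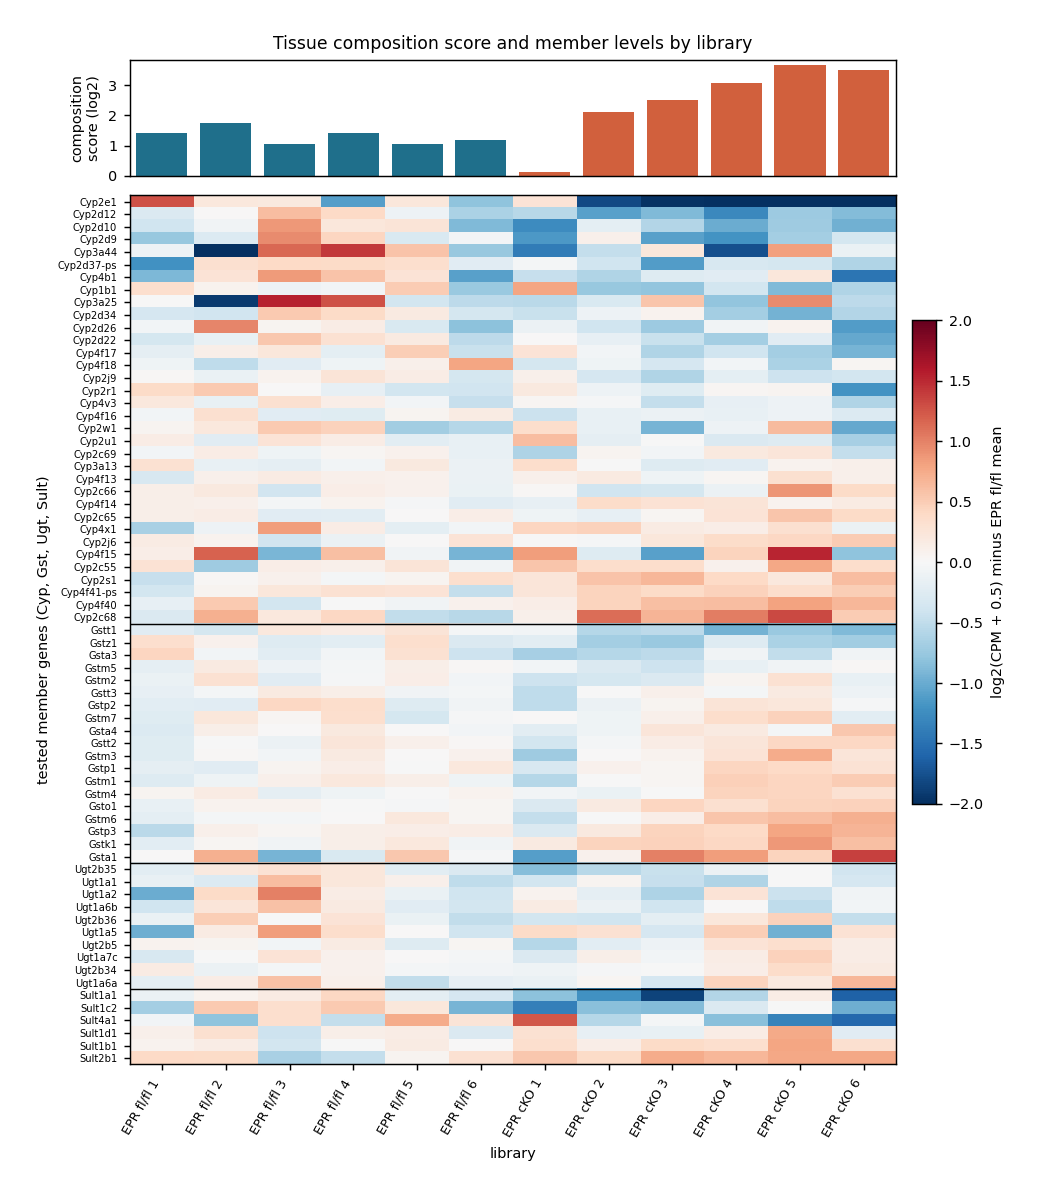
Tissue composition score of each library (bars, log2 units) above the deviation of each tested member from its EPR fl/fl mean, as log2(CPM + 0.5), with colours capped at 2 in either direction. EPR cKO 1 has the lowest score at 0.11, and the Cyp2d genes are below the control mean in most EPR cKO libraries.

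The wider drug-handling pathway was read from lists of 108 genes, 96 of them tested. With edgeR 2 of these rose and none fell, beside 0.884% and 1.57% of all genes. At an unadjusted p under 0.05, 18 were higher and 6 lower, beside 11.1% and 7.12% of all genes. DESeq2 called 7 higher and 1 lower, where it called 2.77% and 2.97% of all genes, and limma 2 and 0, where it called 1.1% and 2.05%. The antioxidant response factor Nfe2l2, which drives many Gst genes, was at 180 to 212 CPM in controls and 220 to 274 in EPR cKO, without overlap (log2 fold change 0.31, SE 0.07, adjusted p = 0.0341). Slc22a18, an organic cation transporter, was at 54.6 to 87.6 and 78.9 to 112 CPM (0.50, SE 0.12, adjusted p = 0.0428). Both calls were lost with the composition covariate (adjusted p = 0.137 and 0.186). The fitted ratio of Nfe2l2 was 1.24. The antioxidant response core stood in 5 of 137 member windows, 3.65% beside 10.2% of all windows, and in that of Nfe2l2 itself. Whether Nfe2l2 acted on the members was not tested.

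The receptors and other factors listed as regulators of this pathway were present at differing levels. Of 14 tested regulators, 1 rose and none fell, beside 0.884% and 1.57% of all genes, and the median log2 fold change was 0.03. Hnf4a was at 629 ± 68.5 CPM in controls and 784 ± 65.9 in EPR cKO (log2 fold change 0.32, adjusted p = 0.0856). Nr1i2, the pregnane X receptor, was at 61.8 ± 4.52 and 73.6 ± 9.79 CPM (0.25, adjusted p = 0.167), and Ahr at 21.1 ± 1.91 and 22.4 ± 2.37 CPM (0.08, adjusted p = 0.641). Nr1i3 stayed under the filter, at 0.502 and 0.837 CPM. Without EPR cKO 1, Hnf4a and Nr1i2 were called as higher (adjusted p = 0.0168 and 0.0143). Over 8 other analyses of all libraries their log2 fold changes were 0.22 to 0.32 and 0.09 to 0.25.

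The remaining groups of the pathway held no call other than Slc22a18. The 4 electron donors had a median log2 fold change of -0.05, and Por was at 157 ± 19.5 and 166 ± 12.1 CPM (0.08, adjusted p = 0.639). Of the 13 genes that supply conjugates, 11 were above 0 with a median of 0.13, and of the 12 transporters 7 were above 0. The exporters Abcb1a and Abcg2 were at 0.08 and 0.06 (adjusted p = 0.735 and 0.820). The other drug enzymes split 17 above and 16 below 0, and Mgst3, a microsomal glutathione transferase chosen here after its values were seen, was at 317 ± 60.1 and 491 ± 109 CPM (0.63, adjusted p = 0.0627). Among 20 tested steroid and retinoid enzymes, 11 were above 0, the cortisol-inactivating Hsd11b2 was at 0.01 (adjusted p = 0.966), and the aromatase Cyp19a1 had no count in any library.

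Markers of colon cell types moved with the groups in several directions. All 10 goblet cell markers had negative log2 fold changes (median -0.81), and 6 of them were called, where 1.57% of all genes were called lower. All 10 epithelial markers (median 0.25) and 9 of 12 colonocyte markers (median 0.40) were above 0 with none called. The 10 smooth muscle markers were all below 0 (median -0.54) with none called. Without EPR cKO 1 all 10 were called, where 14.4% of all genes were called lower. How much of each member's difference moved with these cell types was not tested beyond the composition covariate given above.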

How the data were processed

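The deposited table holds raw read counts per gene and library. As the authors describe, stranded total RNA libraries depleted of ribosomal RNA were sequenced in pairs, trimmed with Trimmomatic, aligned to mm10 with STAR (version 2.5.3a) and counted with featureCounts on an Ensembl GRCm38 annotation. The table's exon lengths were used for CPM per kilobase. Whether counting used strand or shared reads was not given in the sources used here.

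The 12 libraries formed 2 groups by genotype, 6 each. Genes at 1 CPM or more in at least 4 libraries (15952) were fitted together with edgeR (version 4.0.16), TMM scaling and the quasi-likelihood F test, with Benjamini-Hochberg adjustment over all of them. Composition scores used a prior count of 2 and an exact permutation test over 924 assignments. Alternatives used DESeq2 (version 1.42.0) and limma (version 3.58.1). In simulated counts, 12%, 67% and 94% of genes changed by 0.5, 1 and 2 on the log2 scale were recovered. The smallest chi-square per degree of freedom between replicates of a group was 24.7, so no library duplicated another of its own group. Pairs across the groups were not checked. Members, lists and tests were chosen with earlier results of these data known. Genes were named by rule: EPR, called members, members whose groups did not overlap, the 3 highest per family per kilobase, the 5 largest differences each way at an unadjusted p under 0.05, those most like a called member, and, of the pathway lists, called genes and 10 set regulators and enzymes. Cyp2s1, Cyp2c69, Gstz1, Gstt2, Gstt3, Cyp4f14, Ugt2b35, Cyp2d34, Sult1c2, Gsta1 and Mgst3 were added after their values were seen. Also named outside the rule were Cyp2c66, Cyp3a11, Cyp1a1, Cyp2b10, Cyp2a5 and Cyp2d37-ps, and Cyp1b1 and Cyp2j9 for their calls without EPR cKO 1.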

Additional observations from a re-analysis of the deposited data

Results flagged for a closer look

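In sets of 6 libraries, a value was singled out where its gap to the nearest other library was large for the range of the group. Of 64 sets, 8 had such a value, where about 3.2 would if the sets were independent and normally distributed. The sets come from the same 12 libraries and some overlap, such as Sult1b1 and the summed Sult level. The 3.2 is therefore only a rough guide. Cyp2e1 stood out in both groups, at 205 CPM in EPR fl/fl 1 (39.3 to 98.9 in the other controls) and at 102 CPM in EPR cKO 1 (2.21 to 23.9 in the others). Sult1b1 was low in EPR fl/fl 3 at 105 CPM (135 to 153 in the others) and high in EPR cKO 5 at 236 CPM (149 to 177). The summed Sult level was highest in EPR cKO 5 at 1396 CPM (718 to 964). EPR fl/fl 1 was the lowest control for Gstp3 at 0.952 CPM (1.65 to 1.83) and for the summed Gst level at 763 CPM (843 to 886). EPR was at 0.424 CPM in EPR cKO 2 and at 0 to 0.134 in the other EPR cKO libraries.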

How the results depend on the processing

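Gstk1 kept its sign in 8 of 8 other analyses of all libraries (log2 fold change 0.33 to 0.50, called in 5) and 12 of 12 that left out 1 library (0.42 to 0.55, called in 5). Cyp2d12 did so at -1.30 to -1.12 (called in 6) and -1.37 to -1.08 (called in 5). Nfe2l2 was called in 4 of 8 and 1 of 12, Slc22a18 in 5 of 8 and 2 of 12. Of members, 0 were called without EPR fl/fl 3, EPR fl/fl 4, EPR cKO 2, EPR cKO 3 or EPR cKO 6. Of all genes tested, 392 were called, 913 with DESeq2, 245 with the replicate block, 3451 without EPR cKO 1 and 176 to 352 without another library. The cause of these differences was not tested. In simulated counts only 12% of changes of 0.5 on the log2 scale were recovered.

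With total counts in place of TMM, Gst calls were 0 higher and 1 lower and pathway calls 0 higher, and log2 fold changes turned to -0.021 for Cyp3a13 and -0.0096 for Hsd11b2. Of all 15952 genes, 39 were called higher and 247 lower in that fit. With no low-count filter, Gst and pathway calls were 0 higher, and Cyp3a13 and Hsd11b2 turned to -0.013 and -0.0081. Of 36694 genes in that fit, 54 were called higher and 243 lower. DESeq2's Wald test called 2 Cyp higher and 2 lower, 2 Gst lower, 2 Sult higher and 1 lower, and 7 pathway genes higher and 1 lower. It called 2.77% of all genes higher and 2.97% lower. With limma-voom 1 Gst was lower, beside 2.05% of all genes. With the composition covariate, 0 Cyp were lower, 1 Ugt lower, 0 Gst higher and 0 pathway genes higher, beside 0.533% of all genes higher and 1.49% lower. Values turned to -0.035 for Cyp2c65, -0.030 for Ugt2b34, -0.10 for Ugt1a7c, -0.074 for Gstp1, -0.21 for Gstm1 and -0.16 for Hsd11b2.

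Leaving out 1 library gave 0 to 3 Cyp higher, 0 to 4 Cyp lower, 0 to 3 Gst higher, 0 to 2 Gst lower, 0 to 2 Sult higher, 0 to 1 Sult lower, 0 to 12 pathway genes higher and 0 to 7 lower, and a composition difference of 0.957 to 1.67. The highest counts came without EPR cKO 1, except for Sult lower (without EPR cKO 5). Without EPR cKO 1, 7.44% of all genes were called higher and 14.4% lower. Without EPR cKO 5, 76 of 15921 genes were called higher and 195 lower. Cyp3a13 ran from -0.085 to 0.065, Hsd11b2 from -0.066 to 0.12, Sult1d1 from -0.029 to 0.20 and Abcg2 from -0.0073 to 0.16.

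The labels do not say whether replicate numbers pair the mice. The deviations of same-numbered libraries correlated at -0.24 to 0.34, and 2 of 6 best matched their own number. These values cannot settle it, because tissue composition also differed between libraries. With the replicate block, 1 Cyp was higher (Cyp2s1), 0 Cyp were lower, Gstk1 stayed called and 1 pathway gene was lower. Of all 15952 genes, 67 were called higher and 178 lower with the block.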
